A study of Mus musculus with 14 samples.

Results

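Glucuronidation joins glucuronic acid to bilirubin, steroids, bile acids and drugs so that they dissolve in water and can be exported. This account follows 10 genes of the pathway in mouse liver tumours, chosen by name and with earlier results of these data known. One deposited table holds 16821 genes and another 16095, and all 10 are rows of both. They are Ugp2 and Ugdh, which make the sugar donor, 3 genes of the UGT1A family (Ugt1a1, Ugt1a6a and Ugt1a9) and 5 of the UGT2B family (Ugt2b1, Ugt2b5, Ugt2b34, Ugt2b35 and Ugt2b36). RNA sequencing was done on hepatocellular carcinomas driven by MYC, each carrying a guide RNA for Cas9. The first table holds 4 tumours with the control guide sgGFP, 3 with sgCul3 and 3 with sgKeap1, all with MYC. The second holds 2 sgNrf2 tumours, A and B, in which the ETGE motif of NRF2 was targeted, and 2 control libraries, also A and B, each of which its label calls a repeat, of sgGFP tumour 2 for A and 4 for B. The labels give no age, sex or strain, and name separate tumours without saying whether they came from separate mice, so the p-values cover only the spread among the tumours sampled, which may be technical. They give the cell type as hepatocytes. All 10 hepatocyte markers examined, among them Alb, Ttr and Apoa1, had reads in every group. So did the markers of other cell types present, apart from the neutrophil marker Ctsg in sgKeap1, so this does not identify the cells.

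UDP-glucose pyrophosphorylase, encoded by Ugp2, makes UDP-glucose from glucose 1-phosphate, and UDP-glucose dehydrogenase, encoded by Ugdh, oxidises it to UDP-glucuronate. The UDP-glucuronosyltransferases (UGTs) of the endoplasmic reticulum then move the sugar acid onto the substrate: UGT1A1 is the enzyme that conjugates bilirubin, UGT1A6 and UGT1A9 act on phenols, and UGT2B enzymes act on steroids, bile acids and drugs. KEAP1 and CUL3 hold the transcription factor NRF2 low through its ETGE motif, and NRF2 binds antioxidant response elements near its target genes.

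A library of the first table held 6333025 to 12008223 reads on genes, and one of the second 17819333 to 20848578. Transcripts of the targeted genes gave log2 fold changes of -1.70 ± 0.39 for Cul3 in sgCul3 (SE, limma adjusted p = 0.051), -0.77 ± 0.21 for Keap1 in sgKeap1 (adjusted p = 0.048, 0.017 to 0.16 over 17 alternatives) and -0.05 ± 0.22 for Nfe2l2, which encodes NRF2, in sgNrf2 (adjusted p = 0.89). The NRF2 target Nqo1 rose by 6.19 on the log2 scale in sgCul3, 7.11 in sgKeap1 and 5.47 in sgNrf2 (adjusted p = 0.00028, 6.3e-05 and 0.041). The list of 7 known NRF2 targets had 6, 7 and 6 genes higher, with the largest log2 fold changes in the cystine transporter gene Slc7a11 (7.38, 8.53 and 8.81). Slc7a11 had mean levels of 8.34 in sgGFP, 1799 in sgCul3 and 3701 in sgKeap1. In the first table it thus passed the filter on the mean only through the guide tumours, and its calls there are not support for a difference. The first-table counts of this list include it. Gclm, of the same list, rose in sgKeap1 (2.34 ± 0.32, adjusted p = 0.0021) and had values of 1.26 ± 0.32 in sgCul3 and 1.34 ± 0.28 in sgNrf2 (adjusted p = 0.075 and 0.061). Levels below are the authors' scaled counts, which are not per length, and fold changes are on the scale of log2 of the deposited value plus 1.

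The 10 genes lie at 4 places of the mouse genome (GENCODE M21, GRCm38). Ugp2 (ENSMUSG00000001891.16) lies at chr11:21321138-21371201 and Ugdh (ENSMUSG00000029201.14) at chr5:65413221-65435949. The UGT2B members span chr5:86889767-87140318, and none of their exons overlaps an exon of another gene. The UGT1A members span chr1:88070800-88218997 and end in the same 4 exon blocks of 132, 88, 220 and 871 bases, from chr1:88215044 to 88218997. Reads in these blocks belong to every UGT1A gene at once. Only 385 of the 2224 exon bases of Ugt1a1, 2142 of 4312 of Ugt1a6a and 879 of 2190 of Ugt1a9 belong to no other gene. The second table lists reads set aside as ambiguous between genes, 1.15% to 1.32% of the reads on genes and ambiguous reads together, so UGT1A values there rest on the first exons. In Ugt2b5, 41.7% of the 50-base stretches of its transcripts occur in another gene's transcripts, mostly in Ugt2b38 (34.8%), so its reads may be shared or lost, and its values are uncertain in that respect. For Ugp2, Ugdh, Ugt2b1, Ugt2b34, Ugt2b35 and Ugt2b36 the share was 0% to 1.84%. Small parts of the exons of Ugp2 (2.54%) and Ugdh (2.34%) overlap the genes Gm12043 and Gm43552.

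Promoters of all 10 genes were found in RefSeq (GRCm38.p6, 11 sequences, Ugp2 having 2 starts), each with 250 bases before the start and 50 after it. Those of the 4 genes that rose with every guide are printed below, 5′ to 3′ along the gene, because NRF2 acts through the antioxidant response element. Capitals mark the core TGACNNNGC, searched on both strands.
Ugdh, chr5:65435793-65436092, minus strand: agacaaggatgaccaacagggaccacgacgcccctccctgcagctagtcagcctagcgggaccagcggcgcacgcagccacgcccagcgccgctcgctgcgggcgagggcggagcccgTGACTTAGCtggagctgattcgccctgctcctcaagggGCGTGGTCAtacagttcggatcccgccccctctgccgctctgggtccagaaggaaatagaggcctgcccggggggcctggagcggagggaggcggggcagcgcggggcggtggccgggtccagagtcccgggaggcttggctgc
Ugp2 first start, chr11:21371218-21371517, minus strand: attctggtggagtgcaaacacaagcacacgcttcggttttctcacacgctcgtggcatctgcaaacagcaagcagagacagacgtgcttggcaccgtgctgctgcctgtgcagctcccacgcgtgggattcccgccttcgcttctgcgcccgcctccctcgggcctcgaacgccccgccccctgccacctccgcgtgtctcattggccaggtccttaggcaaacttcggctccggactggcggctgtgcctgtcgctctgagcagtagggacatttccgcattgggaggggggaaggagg
Ugp2 second start, chr11:21370580-21370879, minus strand: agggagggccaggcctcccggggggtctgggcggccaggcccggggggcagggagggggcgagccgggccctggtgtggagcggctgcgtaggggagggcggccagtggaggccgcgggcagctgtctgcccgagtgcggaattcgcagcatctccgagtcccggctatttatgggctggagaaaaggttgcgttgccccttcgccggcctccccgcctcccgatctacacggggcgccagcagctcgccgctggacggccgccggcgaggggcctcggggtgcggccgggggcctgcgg
Ugt2b34, chr5:86906888-86907187, minus strand: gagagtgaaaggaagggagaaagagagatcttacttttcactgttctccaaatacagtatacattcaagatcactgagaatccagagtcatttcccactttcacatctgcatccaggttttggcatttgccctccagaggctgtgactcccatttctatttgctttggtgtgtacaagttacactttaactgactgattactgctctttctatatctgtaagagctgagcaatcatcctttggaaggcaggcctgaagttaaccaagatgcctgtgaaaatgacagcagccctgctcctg
Ugt2b35, chr5:87000610-87000909, plus strand: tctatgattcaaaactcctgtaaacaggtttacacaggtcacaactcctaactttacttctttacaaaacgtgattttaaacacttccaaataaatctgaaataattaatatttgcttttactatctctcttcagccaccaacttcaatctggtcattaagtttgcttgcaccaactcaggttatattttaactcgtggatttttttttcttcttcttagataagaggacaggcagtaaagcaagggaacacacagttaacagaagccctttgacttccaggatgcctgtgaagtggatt
The Ugdh promoter held 2 matches, TGACTTAGC on the strand of the gene, beginning 132 bases before the start, and TGACCACGC on the opposite strand, 94 bases before it. None of the other 10 promoters held one, which says only that these letters are not in these windows, and 12.4% of the 32851 promoters in the table held at least 1. GTTAAT, the core of an HNF1 site, a motif of hepatocyte promoters, was in 3 of the 11 promoters and in 7.10% of all. These 3 are the UGT1A promoters, which are shown here because they share the motif. All 3 carry it on the opposite strand, so that the capitals read as its reverse complement in 40-base windows of the plus strand.
Ugt1a1, chr1:88211901-88211940: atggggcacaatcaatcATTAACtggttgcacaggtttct
Ugt1a6a, chr1:88134742-88134781: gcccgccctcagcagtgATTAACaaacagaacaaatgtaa
Ugt1a9, chr1:88070671-88070710: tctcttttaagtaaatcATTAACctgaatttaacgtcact
The matches begin 41, 50 and 91 bases before the starts of Ugt1a1, Ugt1a6a and Ugt1a9. A match is a description of letters and not of binding.

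Across the comparisons, the supply genes and Ugt2b34 and Ugt2b35 rose with every guide, the other UGT2B genes rose in some, and Ugt1a1, Ugt1a6a and Ugt1a9 did not pass. In sgNrf2 the calls of the first 4 were each lost without sgNrf2 A (adjusted p = 0.081 to 0.25), and that of Ugt2b34 in sgCul3 was lost without any 1 tumour. The 10 genes were chosen with earlier results of these data known, so the shares below are a description and not a test of the set. Limma called 4 of the 10 genes higher in sgCul3, against 1.35% of the 13045 genes tested, and 7 in sgKeap1, against 4.45%. It called 5 higher in sgNrf2, against 1.9% of 13989 genes. It called 0 of the 10 lower in these comparisons, where 0.851%, 3.37% and 2.51% of all genes were lower. At an unadjusted p under 0.05, 5, 8 and 8 members stood in sgCul3, sgKeap1 and sgNrf2, all with positive log2 fold changes, and edgeR and DESeq2 also called 0 lower. The largest of these limma p were 0.0149, 0.0152 and 0.0371, at ranks 1120, 2142 and 3666 by p among all genes tested. An unadjusted p under 0.05 was thus common among all genes. The median log2 fold change of the 10 was 1.91 in sgCul3, 3.23 in sgKeap1 and 2.0 in sgNrf2, where that of all genes was 0.01, -0.01 and 0.04.

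**Figure D1:**
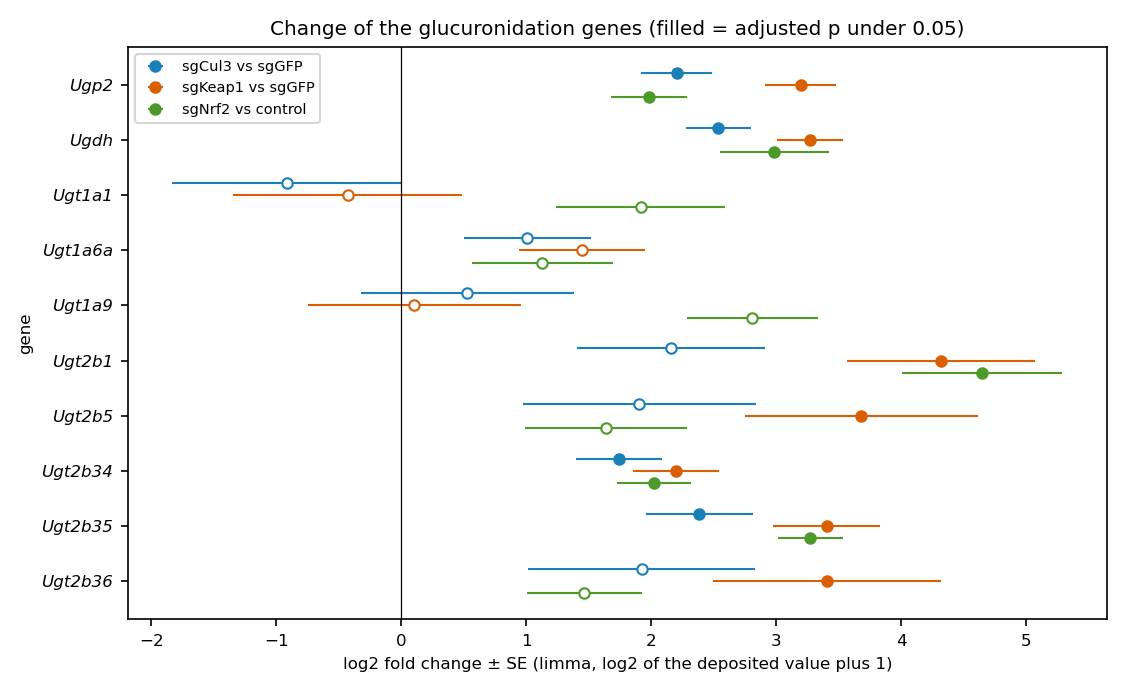
Log2 fold change (x axis, limma, bars ± SE) of each gene (y axis) in sgCul3 and sgKeap1 against sgGFP and in sgNrf2 against the controls, filled where the adjusted p was under 0.05. Ugp2, Ugdh, Ugt2b34 and Ugt2b35 are filled in all 3 comparisons, and Ugt1a1, Ugt1a6a and Ugt1a9 in none.

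Ugp2, at the entry of the pathway, had scaled counts of 853, 1392, 1507 and 1380.0 in sgGFP tumours 1 to 4. The sgCul3 tumours (1 to 3) had 5788, 6121 and 5467, and the sgKeap1 tumours (1 to 3) 7739, 16468 and 11941. All 6 guide tumours lay above all 4 controls, and all sgKeap1 tumours above all sgCul3 tumours. The means were 1283 ± 292 (SD, n = 4) in sgGFP, 5792 ± 327 (n = 3) in sgCul3 and 12049 ± 4365 (n = 3) in sgKeap1. Ugp2 rose by 2.20 ± 0.28 (SE) on the log2 scale in sgCul3 (limma adjusted p = 0.0036) and by 3.20 ± 0.28 in sgKeap1 (adjusted p = 0.00015). In the second table controls A and B held 2726 and 4225, and sgNrf2 A and B 15722 and 11459, with no overlap. It rose by 1.98 ± 0.30 there (adjusted p = 0.044).

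Ugdh, which turns UDP-glucose into the donor itself, had 964, 1046, 1415 and 1612 in sgGFP tumours 1 to 4. The sgCul3 tumours had 7244, 5484 and 9224, in the order 1 to 3, and the sgKeap1 tumours 10756, 14757 and 10648. The order of the groups was the same as for Ugp2, again without overlap between any of them. Means were 1259 ± 306 (SD, n = 4) in sgGFP, 7317 ± 1871 (n = 3) in sgCul3 and 12054 ± 2342 (n = 3) in sgKeap1. It rose by 2.54 ± 0.26 (SE) on the log2 scale in sgCul3 (limma adjusted p = 0.00084, rank 14 by p among all genes) and by 3.27 ± 0.26 in sgKeap1 (adjusted p = 7.5e-05, rank 11). Controls A and B held 1954 and 4126, and sgNrf2 A and B 28118 and 17995, a rise of 2.99 ± 0.44 (adjusted p = 0.043). Its promoter, printed above, is the one with matches to the antioxidant response element core.

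**Figure D2:**
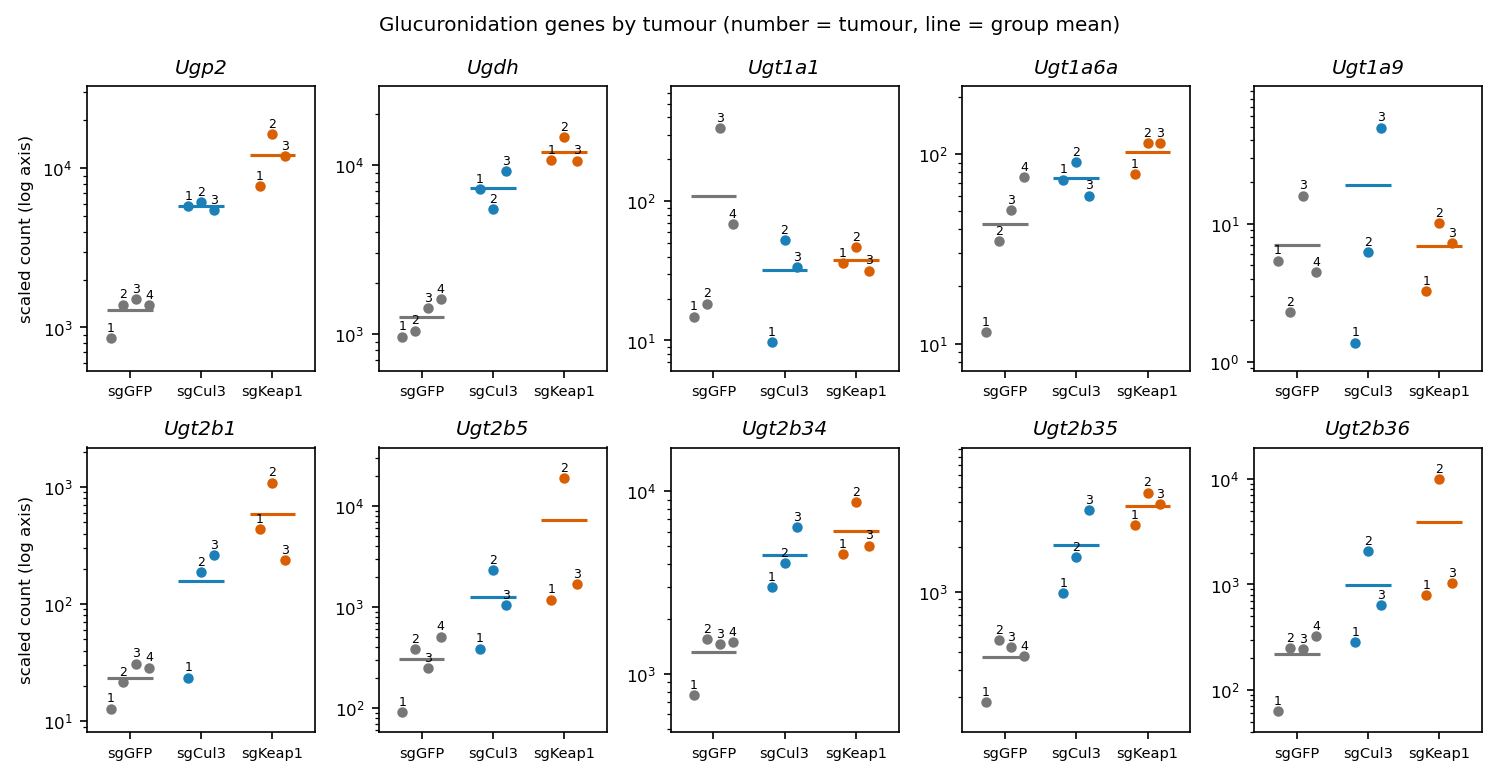
Scaled counts (y axis, log axis, a scale per gene) of the 10 genes in sgGFP, sgCul3 and sgKeap1 tumours, with each point numbered by tumour and a line at the group mean. The sgCul3 and sgKeap1 points of Ugp2 and Ugdh lie above every sgGFP point, while sgKeap1 tumour 2 stands high in Ugt2b5 and Ugt2b36.

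Among the 5 UGT2B members, Ugt2b34 had the highest scaled counts in the sgGFP tumours. Its scaled counts were 764, 1544, 1459 and 1495 in the sgGFP tumours (1 to 4), 2979, 4037 and 6376 with sgCul3 (1 to 3), and 4536, 8672 and 5030.3 with sgKeap1 (1 to 3). The guide tumours lay above all controls, and sgCul3 and sgKeap1 overlapped. Ugt2b34 rose by 1.74 ± 0.35 (SE) on the log2 scale in sgCul3 (limma adjusted p = 0.029) and by 2.20 ± 0.35 in sgKeap1 (adjusted p = 0.0044). The call in sgCul3 was lost without any single one of the 7 tumours compared (adjusted p = 0.051 to 0.075), with a log2 fold change of 1.45 to 2.0. In sgNrf2 A and B it had 15716 and 11049 against 2679 and 3926 in the 2 controls, a rise of 2.02 ± 0.30 (adjusted p = 0.043).

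Ugt2b35 had 185, 479, 428 and 374 in sgGFP tumours 1 to 4. The sgCul3 tumours held 979.6, 1718 and 3525 and the sgKeap1 tumours 2790.1, 4610 and 3863. Again no guide tumour overlapped the controls. It rose by 2.38 ± 0.43 (SE) on the log2 scale in sgCul3 (limma adjusted p = 0.021, or 0.055 without sgCul3 tumour 2) and by 3.40 ± 0.43 in sgKeap1 (adjusted p = 0.0013). With 10567 and 7000 (sgNrf2 A and B) against 828 and 952 (controls A and B), it rose by 3.27 ± 0.26 in sgNrf2 (adjusted p = 0.024), the smallest p of the 10 genes there.

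Among the 5 UGT2B members, Ugt2b1 had the fewest reads in the sgGFP tumours and the largest fold changes in sgKeap1 and sgNrf2. It had 12.8, 21.5, 31.0 and 28.6 in sgGFP tumours 1 to 4, and in the sgKeap1 tumours 436, 1089 and 238 (1 to 3), all higher. It rose by 4.32 ± 0.75 (SE) on the log2 scale in sgKeap1 (limma adjusted p = 0.0076). In sgCul3 tumours 1 to 3 it had 23.5, 189 and 264, so tumour 1 lay among the controls and the others above them. The log2 fold change of 2.16 ± 0.75 did not pass (adjusted p = 0.17), and it passed without sgCul3 tumour 1 (3.21, adjusted p = 0.035) and with DESeq2 (2.76, adjusted p = 0.0018). Ugt2b1 had 2347 and 680 in sgNrf2 A and B against 41.0 and 59.5 in controls A and B, a rise of 4.65 ± 0.64 (adjusted p = 0.041).

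Ugt2b5 and Ugt2b36 varied widely between tumours of a group. Ugt2b5 had 91.8, 386, 249 and 509 in the sgGFP tumours (1 to 4), 388, 2302 and 1039.9 with sgCul3 (1 to 3), and 1183, 18996 and 1678 with sgKeap1 (1 to 3). The sgKeap1 tumours lay above all controls, sgKeap1 tumour 2 was 16.1 times as high as tumour 1, and sgCul3 tumour 1 overlapped the controls. The log2 fold change of Ugt2b5 was 3.68 ± 0.93 (SE) in sgKeap1 (limma adjusted p = 0.039) and 1.90 ± 0.93 in sgCul3 (adjusted p = 0.33). In the same order Ugt2b36 had 63.4, 249, 244 and 324 with sgGFP, 285, 2067 and 637 with sgCul3, and 798, 9939 and 1038 with sgKeap1. The same tumours were high and low as for Ugt2b5. Ugt2b36 changed by 3.41 ± 0.91 in sgKeap1 (adjusted p = 0.046) and its value in sgCul3 was 1.93 ± 0.91 (adjusted p = 0.31).

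Both calls in sgKeap1 rested on single tumours. Without sgKeap1 tumour 2 the log2 fold changes were 2.43 for Ugt2b5 and 2.26 for Ugt2b36 (adjusted p = 0.12 and 0.15). Ugt2b5 also lost its call without sgKeap1 tumour 3 or sgGFP tumours 1, 2 or 3 (adjusted p = 0.058 to 0.096), and Ugt2b36 without sgKeap1 tumour 3 or any sgGFP tumour (adjusted p = 0.054 to 0.097). In sgKeap1 tumour 2 a share of 24.5% of the reads fell on 10 genes, and the summed level of 10 hepatocyte markers was 1204330, against 154317 and 156137 in sgKeap1 tumours 1 and 3 and 123797 to 343551 in sgGFP. Alb alone reached 1046670 among the sgKeap1 tumours, so the marker sum of tumour 2 was mostly that gene. In sgCul3 that sum was also highest in tumour 2 (324791, against 132218 and 112446). The part of hepatocyte content or of this library in the 2 genes' values was not tested, and in bulk tumours more cells of a type and more RNA per cell cannot be told apart. In the second table Ugt2b5 had 5194 and 1706 in sgNrf2 A and B against 647 and 1411 in controls A and B, and Ugt2b36 had 2513 and 1191 against 477 and 821. Neither passed there (1.64 ± 0.65, adjusted p = 0.17, and 1.47 ± 0.46, adjusted p = 0.12), and DESeq2 called both (adjusted p = 0.026 and 0.016). The hepatocyte sum was lower in sgNrf2 (317762 to 398594) than in the controls (456911 to 735249).

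The residual SD of log2 values within groups of the first table put these genes apart. It was 0.34 for Ugdh and 0.38 for Ugp2, below the median of 0.41 over all tested genes. It was 1.52 for Ugt2b5, 1.48 for Ugt2b36 and 1.45 for Ugt1a1, larger than in 97.7%, 97.5% and 97.3% of genes. Ugt2b34 and Ugt2b35 lay between, at 0.51 and 0.67.

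None of the 3 UGT1A genes chosen, Ugt1a1, Ugt1a6a and Ugt1a9, passed in any comparison. Ugt1a1, the bilirubin enzyme, had 14.8, 18.4, 336 and 68.0 in sgGFP tumours 1 to 4, so tumour 3 stood far above the rest. The sgCul3 tumours (1 to 3) held 9.67, 52.3 and 33.6 and the sgKeap1 tumours 36.0, 46.6 and 31.7, all within the range of the controls or below it. Its log2 fold changes were -0.92 ± 0.92 (SE) in sgCul3 and -0.43 ± 0.92 in sgKeap1 (limma adjusted p = 0.66 and 0.78). Without sgGFP tumour 3 they were -0.03 and 0.46. In the second table control A held 35.6 and control B 135, below the 279 and 253 of sgNrf2 A and B, at 1.91 ± 0.68 (adjusted p = 0.14, or 0.049 without control B).

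Ugt1a6a, a phenol-conjugating form, had 11.5, 34.5, 50.5 and 75.2 in sgGFP tumours 1 to 4. With sgCul3 the values were 73.2, 90.4 and 60.2 (tumours 1 to 3), overlapping sgGFP tumour 4, and with sgKeap1 78.5, 113 and 114, just above it. Its log2 fold changes were 1.01 ± 0.51 (SE, limma adjusted p = 0.34) and 1.45 ± 0.51 (adjusted p = 0.093). In sgNrf2 A and B it had 167 and 184 against 47.4 and 133 in controls A and B (1.13 ± 0.56, adjusted p = 0.24).

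Ugt1a9 was at the edge of detection in the first table, with 1 to 63 reads a library. The levels were 5.40, 2.30, 15.9 and 4.47 in the sgGFP tumours (1 to 4), 1.38, 6.20 and 49.3 with sgCul3 (1 to 3), and 3.27, 10.1 and 7.21 with sgKeap1 (1 to 3). These tumours differed from each other within a group as well, in sgCul3 from 1.38 to 49.3, and the sign of the fold change moved with the settings. In the second table, where libraries were deeper, it had 85.1 and 56.8 in sgNrf2 A and B against control values of 10.8 and 7.59. The control mean was 9.19, so Ugt1a9 passed the filter at a mean of 10 only through the sgNrf2 tumours. Its results under any setting there are therefore not support for a difference. Its change of 2.81 ± 0.52 on the log2 scale just missed (limma adjusted p = 0.055) and passed with DESeq2 (2.92, adjusted p = 0.0056), with quantile normalization (2.83, adjusted p = 0.045) and without control A (3.04, adjusted p = 0.037).

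**Figure D3:**
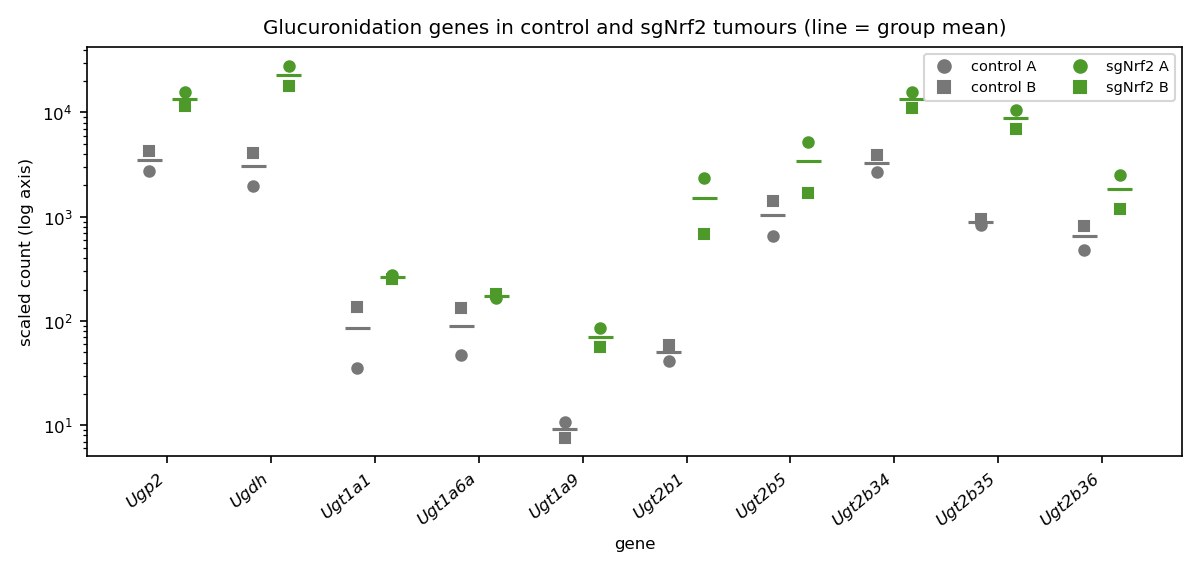
Scaled counts (y axis, log axis) of the 10 genes (x axis) in controls A and B and sgNrf2 tumours A and B, with a line at each group mean. Both sgNrf2 points lie above both control points in every gene, a pattern that 33.3% of all genes tested showed.

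The overlap of the groups can be set beside all genes, though the 10 were chosen with earlier results of these data known. In sgCul3, 4 of the 10 genes had every tumour above every sgGFP tumour, against 8.71% of all genes tested, and in sgKeap1 8 did, against 13.1%. In sgNrf2 all 10 did, but with 2 tumours a group 33.3% of all genes do. The calls in sgNrf2 rest on these few libraries: limma called 0 of the 10 without sgNrf2 A, 2 without sgNrf2 B, 3 without control B and 6 without control A. With all 4 libraries edgeR called 5 and DESeq2 8. In sgCul3 it called 2 without sgCul3 tumour 2. The first-table comparisons share their sgGFP tumours, and controls A and B repeat 2 of those, so these results are not independent of each other. Between a repeat and its first library the CPM of the 10 genes differed by ratios of 0.66 to 1.42, apart from Ugt1a9, which had few reads (2.24 and 0.79).

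Whether sgKeap1 and sgCul3 differ was tested directly, 3 tumours against 3. Limma called 0 of the 10 genes, as did edgeR and DESeq2, while 0.0307% of all genes were called higher and 0.0307% lower. At an unadjusted p under 0.05 stood 4: Ugp2, Ugdh, Ugt2b1 and Ugt2b35. The largest of these limma p, 0.0471 for Ugt2b35, had rank 1248 by p among the 13045 genes tested, so many other genes stood there too. The difference (sgKeap1 minus sgCul3, log2 scale) was 0.99 for Ugp2 with a 95% interval of 0.33 to 1.65 (limma adjusted p = 0.40), and 0.74 for Ugdh with an interval of 0.12 to 1.35 (adjusted p = 0.46). These 2 had no overlap between the groups, against 7.52% of all genes. For Ugt2b1 it was 2.16 (0.39 to 3.92), for Ugt2b35 1.02 (0.02 to 2.03) and for Ugt2b34 0.46 (-0.36 to 1.27). The intervals of Ugt2b5 (-0.42 to 3.97), Ugt2b36 (-0.65 to 3.62), Ugt1a1 (-1.66 to 2.64), Ugt1a6a (-0.75 to 1.63) and Ugt1a9 (-2.43 to 1.59) include differences of either sign.

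Levels can be compared between genes only per length. Per kilobase of exon that belongs to no other gene (M21 lengths), and leaving out the UGT1A genes and Ugt2b5, the sgGFP means were 429 ± 97.6 scaled counts for Ugp2 and 305 ± 85.6 for Ugt2b34 (SD, n = 4). Ugdh followed at 191 ± 46.4, then Ugt2b35 at 109 ± 38.3 and Ugt2b36 at 107 ± 53.7, which did not differ beyond their spread, and Ugt2b1 at 9.13 ± 3.18. In sgKeap1, Ugp2 (4028 ± 1460, n = 3) again led, with Ugt2b36 (1906 ± 2530) next, and Ugdh (1828 ± 355) stood above Ugt2b34 (1410 ± 524) and Ugt2b35 (1118 ± 272). Ugt2b1 had 228 ± 173, and the SD of Ugt2b36 is larger than its mean, so its place in this order is not settled by these tumours. In sgNrf2, Ugp2 (4544), Ugdh (3496), Ugt2b34 (3104) and Ugt2b35 (2615) stood within 1 SD of the neighbour in that order (SD 1008, 1086, 765 and 751, n = 2). Ugt2b36 had 899.6 ± 454 and Ugt2b1 588 ± 458.

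Members also differed in how they moved together across the 10 tumours of the first table, given here as a description over libraries that share their guides. Ugt2b5 and Ugt2b36 had a Pearson correlation of 0.993 of log2 values, and 0.985 between their deviations from the group means. Ugt2b34 and Ugt2b35 had 0.985 and 0.929. Ugp2 and Ugdh had 0.974 but only 0.487 between deviations. The 2 UGT2B pairs thus followed each other within groups as well as between them. Among 9037 genes whose mean reached 100, those most like Ugp2 were Mocos, the molybdenum cofactor sulfurase (0.978, and 0.695 between deviations), and Ugdh. Those most like Ugdh were the glutathione S-transferase Gstm4 (0.983, and 0.675 between deviations) and the cystine transporter Slc7a11 (0.98 and 0.419). Beside each other, Ugt2b5 was most like the carboxylesterase Ces1c (0.976 and 0.966) and Ugt2b36 like Baat, which conjugates bile acids (0.984 and 0.964). Beside each other, Ugt2b34 was most like 2310040G24Rik (0.969 and 0.906) and Ugt2b35 like the Wnt receptor gene Fzd7 (0.98 and 0.831). Ugt2b1 was most like Mettl7a1 (0.954 and 0.856) and the adaptor gene Shc1 (0.945 and 0.751). Ugt1a1 correlated with Ugp2 and Ugdh at -0.11 and -0.14, and at 0.436 and 0.431 between deviations.

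**Figure D4:**
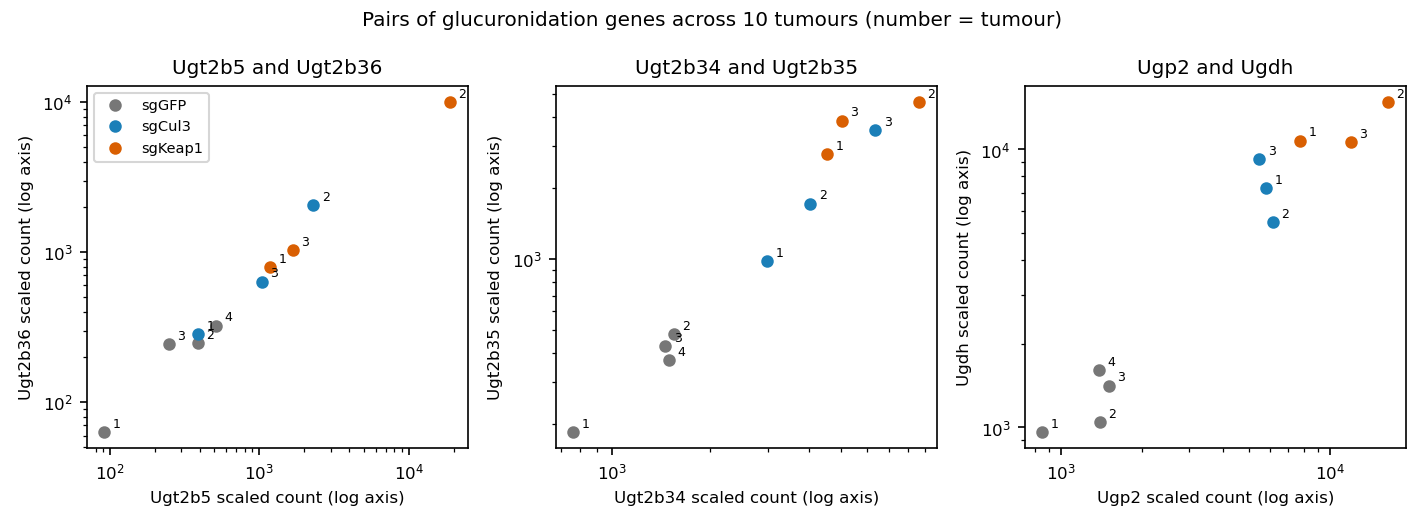
Scaled counts of 3 pairs of genes against each other (both axes log), 1 point per tumour of the first table, coloured by guide and numbered by tumour. The points of Ugt2b5 against Ugt2b36 and of Ugt2b34 against Ugt2b35 lie along a line within groups too, while Ugp2 and Ugdh separate the groups more than the tumours within them.

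Of 14 other UGT genes listed, 7 were in the first table and 5 in the second, and 5 were tested in each. Over all genes, 1.35%, 4.45% and 1.9% were called higher in sgCul3, sgKeap1 and sgNrf2. In sgKeap1 2 of the 5 rose: Ugt8a, which makes galactosylceramide (4.30 ± 0.59, limma adjusted p = 0.0020), and Ugt1a7c (3.06 ± 0.69, adjusted p = 0.024). In sgCul3 limma called 0 of 5, and in sgNrf2 3 rose: Ugt8a (6.58 ± 1.11), Ugt1a7c (5.97 ± 0.83) and Ugt1a6b (3.07 ± 0.32), with adjusted p of 0.033 to 0.047. Ugt1a7c and Ugt1a6b belong to the same family as Ugt1a1, Ugt1a6a and Ugt1a9, and their values have the same limit of shared exons. Ugt8a had means of 1.80 in sgGFP and 1.02 in sgCul3, and of 99.1 in sgKeap1, so it passed the filter at a mean of 10 only through the tumours where it is high, and its calls are not support for a difference. Ugt1a7c, at 6.95 in sgGFP, also passed only through the guide tumours of the first table. In the second table Ugt8a likewise had 3.87 in the controls and 582 in sgNrf2. Between sgKeap1 and sgCul3 it was called (adjusted p = 0.028), and the call was lost in 7 of 14 alternatives. It had 184 reads over the sgKeap1 tumours and 3 over the sgCul3 tumours. Its level ran from 38.4 to 213 among the sgKeap1 tumours, a spread that summed reads do not show.

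**Figure D5:**
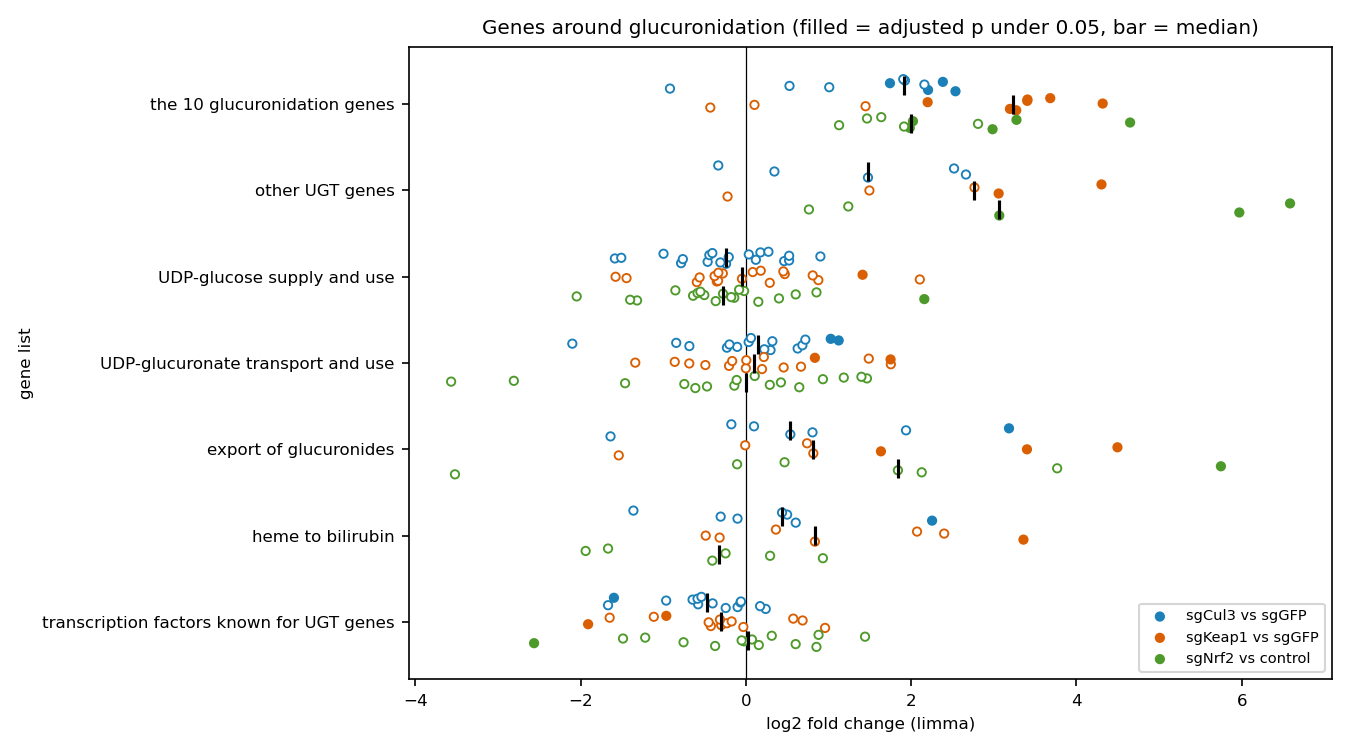
Log2 fold change (x axis, limma) of the tested genes of each list (y axis) in the 3 comparisons with controls, filled where the adjusted p was under 0.05, with a bar at the median. The medians of the 10 glucuronidation genes lie at 1.91 to 3.23, and those of the UDP-glucose list between -0.28 and -0.05.

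Of 19 other genes of UDP-glucose supply and use (hexokinases, phosphoglucomutases, glycogen and galactose enzymes), limma called 0 in sgCul3, 1 higher in sgKeap1 and 1 higher in sgNrf2. These were Nudt14, which splits UDP-glucose (1.41 ± 0.36 in sgKeap1, adjusted p = 0.042), and the glycogen branching enzyme gene Gbe1 (2.16 ± 0.22 in sgNrf2, adjusted p = 0.032). The single call in sgKeap1 is 1 of 19 genes, near the 4.45% of all genes called higher there. Others had values as far from 0 that did not pass, among them Hk1 at -1.58 ± 0.44 in sgKeap1 (adjusted p = 0.051) and Galt at -1.40 ± 0.27 in sgNrf2 (adjusted p = 0.055), both named after their values were seen. The medians of the list were -0.24, -0.05 and -0.28. Of 16 genes of UDP-glucuronate transport and use, 2 rose in sgCul3, the same 2 in sgKeap1 and 0 in sgNrf2. For this list and the one before it, the shares of all genes called higher were 1.35%, 4.45% and 1.9%. Slc35d1, which carries UDP-glucuronate across the endoplasmic reticulum membrane, rose by 1.12 ± 0.24 in sgCul3 and 1.75 ± 0.24 in sgKeap1 (adjusted p = 0.043 and 0.0021). Uxs1, which turns UDP-glucuronate into UDP-xylose, rose by 1.03 ± 0.20 and 0.84 ± 0.20 (adjusted p = 0.027 and 0.030), and its adjusted p in sgCul3 was 0.067 in a fit blocked on tumour number.

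Of 7 export pumps for glucuronides and other conjugates, 1 rose in sgCul3, 3 in sgKeap1 and 1 in sgNrf2. Beside this and the next 2 lists, 1.35%, 4.45% and 1.9% of all genes were called higher there. Abcc4, a pump of the sinusoidal membrane, rose with all 3 guides, by 3.18 ± 0.58, 4.50 ± 0.58 and 5.75 ± 0.57 (limma adjusted p = 0.022, 0.0015 and 0.029). Abcc3, which exports glucuronides to the blood, and Abcc2, which exports them to bile, rose in sgKeap1 (3.40 ± 0.46 and 1.63 ± 0.33, adjusted p = 0.0019 and 0.016). The heme to bilirubin list of 7 genes includes the carrier genes Slco1b2, Slco1a1 and Slco1a4. In sgCul3 and in sgKeap1 1 of the 7 rose, Blvrb, biliverdin reductase B (2.25 ± 0.39 and 3.36 ± 0.39, adjusted p = 0.018 and 0.00081). Blvra, the other biliverdin reductase gene of this list, did not pass (0.60 ± 0.32 and 0.84 ± 0.32, adjusted p = 0.37 and 0.12). Limma called 0 of the 6 tested in sgNrf2. Of 14 transcription factors known for UGT genes 0 rose in any of the 3 comparisons. That is near the shares of all genes and says little about these 14. Limma called 1, 2 and 1 of them lower in sgCul3, sgKeap1 and sgNrf2, where 0.851%, 3.37% and 2.51% of all genes were lower. Ppara, a nuclear receptor of fatty acids, fell in sgCul3 (-1.60 ± 0.34, adjusted p = 0.042), Rxra, its partner, in sgKeap1 (-0.96 ± 0.25, adjusted p = 0.040), and Maff, a small partner of NRF2, in sgKeap1 and sgNrf2 (-1.91 ± 0.52 and -2.56 ± 0.28, adjusted p = 0.049 and 0.034). Leaving out 1 of several libraries, sgCul3 tumour 1 among them, ended each sgCul3 call of these listed genes, with adjusted p up to 0.19 over all alternatives for Slc35d1, 0.17 for Uxs1 and Abcc4, 0.10 for Blvrb and 0.21 for Ppara. In sgKeap1 the calls of Slc35d1, Abcc4, Abcc3 and Blvrb held under every alternative run. That of Ugt8a held too, but it is not support for a difference, as given above. The calls of Ugt1a7c, Nudt14, Uxs1, Abcc2, Rxra and Maff did not hold (up to 0.067 to 0.19). In sgNrf2 each such call was lost without sgNrf2 A (0.080 to 0.25).

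Some markers of blood cells fell in the same tumours. Of 9 erythroid markers 3 fell in sgCul3, 5 in sgKeap1 and 8 in sgNrf2, and of 9 neutrophil markers 0, 6 and 2 fell. The shares of all genes called lower were 0.851%, 3.37% and 2.51%. In sgCul3 the summed levels overlapped sgGFP (erythroid 421 to 11320 against 5003 to 15080, neutrophil 145 to 2824 against 748 to 4943). The summed neutrophil level was 176 to 224 in sgKeap1 and 748 to 4943 in sgGFP, with Ctsg at 0 in all sgKeap1 tumours, and 186 to 628 in sgNrf2 against 4803 to 10475 in the controls. The summed erythroid level was 1970 to 2175 in sgKeap1 against 5003 to 15080 in sgGFP, and 963 to 1982 in sgNrf2 against 17409 to 19338 in the controls. Of 10 hepatocyte markers limma called 0 in sgCul3 and sgKeap1, and 1, Ass1, lower in sgNrf2. Of 6 cholangiocyte markers tested, Spp1 rose in sgCul3 and sgKeap1 and Krt19 in sgKeap1, where 1.35% and 4.45% of all genes rose. In the second table, alignments to more than 1 place numbered 1.64 and 1.74 per read on genes in the controls and 0.944 and 1.01 in sgNrf2. The part of these shifts in the values of the glucuronidation genes was not tested.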

How the data were processed

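Per the labels, total RNA of MYC-driven mouse liver tumours was extracted with a Qiagen kit and made into TruSeq RNA v2 libraries. Per the submitters' processing notes, Picard, HTSeq and DESeq were used with build mm10; for the aligner and annotation release the sources used here name none. The deposited values are a signal: HTSeq counts divided by DESeq size factors, with an added 1 in all entries of the first table, removed here for levels and reads. Dividing by the smallest step gave whole reads, within 0.1 read, in both tables. The tables were scaled separately, so tests stayed within a table, and 4 non-gene entries of the second were left out of the tests.

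Limma 3.58.1 (R 4.3.3, moderated with a mean trend) was run on log2 of the deposited value plus 1, for genes whose mean was 10 or more, with the 3 groups of the first table sharing 1 estimate of the spread. P-values were adjusted by Benjamini-Hochberg over all genes tested, and called under 0.05. The script was tested on simulated data. Alternatives were a pseudocount of 5, no filter, a mean of at least 50, quantile normalization, edgeR 4.0.16 and DESeq2 1.42.0 on recovered reads, a replicate block, each library left out, and, in the first table, only the 2 groups compared and only sgGFP tumours 1 and 3. One more, without the added 1, was chosen after seeing the data. Same-numbered sgGFP and sgCul3 tumours deviated together from their group means (correlations of 0.164, 0.175 and 0.314, against -0.297 to 0.077 for different numbers). A pairing of these groups was thus assumed from the data, as the labels do not give one. Same-numbered sgCul3 and sgKeap1 tumours had 0.239, 0.518 and 0.098, and different-numbered ones -0.436 to 0.264. The main fits were unpaired in every comparison, and pairing entered only through the replicate block.

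The rule for named genes took all 10 members, up to 3 called genes per list and comparison by adjusted p, the 2 genes most like each member with a mean of at least 100, the targeted genes, Nqo1 and Gclm. Members and lists were chosen with earlier results of these data known. Deposited gene IDs with versions matched GENCODE M21 for all 10 genes and for 11642 and 11054 of all IDs.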

Additional observations from a re-analysis of the deposited data

Results flagged for a closer look

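Within the sgGFP tumours, the gap of 1 sample to its neighbours was large in 2 of the 10 genes. Chance flags about 1 in 20 groups of independent, normally distributed values. These scaled counts were not logged and the 10 genes share the same tumours, so that rate may not hold here. Ugt1a1 stood highest in sgGFP tumour 3, at 336 scaled counts against 14.8 to 68.0 in the other 3. Ugt2b34 stood lowest in sgGFP tumour 1, at 764 against 1459 to 1544.

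The sign of the Ugt1a1 difference was opposite in sgKeap1 and sgNrf2. Its log2 fold change was -0.43 in sgKeap1, with every tumour below the control mean, and 1.91 in sgNrf2, with both tumours above it. The values come from separate tables, the difference between them was not tested, and without sgGFP tumour 3 the sgKeap1 value was 0.46.

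For Ugt8a the difference between sgKeap1 and sgCul3 was 4.64 on the log2 scale (limma adjusted p = 0.028). Its means were 1.80 in sgGFP, 1.02 in sgCul3 and 99.1 in sgKeap1. It thus passed the filter on the mean only through the sgKeap1 tumours, and this call is not support for a difference. The call was lost in 7 of 14 alternatives (adjusted p = 2.3e-06 to 0.17), those without sgCul3 tumour 1, 2 or 3, without sgKeap1 tumour 1 or 3, with only the 2 groups, and with the replicate block.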

How the results depend on the processing

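Ugt1a9 had 1 to 63 reads a library in the first table, so counting error is large there, and Ugt1a1 had 22 to 379 reads among the sgGFP tumours. The sgNrf2 comparison has 2 libraries a group. Ugp2 and Ugdh kept their direction and call in sgCul3 and sgKeap1 under all 17 alternatives, and Ugt2b34 and Ugt2b35 did in sgKeap1. The number of the 10 genes called higher was 2 in sgCul3 and 4 in sgKeap1 with only sgGFP tumours 1 and 3 as controls, and 8 in sgNrf2 with DESeq2. Leaving out 1 library gave 2 to 4 in sgCul3, 5 to 7 in sgKeap1 and 0 to 6 in sgNrf2. Of all genes, 287, 1020, 8 and 617 were called in sgCul3, sgKeap1, sgKeap1 against sgCul3, and sgNrf2. The sgCul3 count was 162 at a mean of at least 50, 926 with DESeq2, 156 with only the 2 groups, 46 with the 2 controls and 68 to 327 leaving out 1 library. For sgKeap1 it was 2143 with DESeq2, 321 with the 2 controls and 319 to 1516 leaving out 1. Between sgKeap1 and sgCul3 it was 104 with DESeq2, 0 with only the 2 groups, and 0 to 9. For sgNrf2 it was 972 with quantile normalization, 2639 with DESeq2 and 3 to 3383.

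With the replicate block, which drops the unpaired sgGFP tumour 4, the calls of the 10 genes in sgCul3 stayed as they were, and Uxs1 alone of the named genes lost its call there (0.94, adjusted p = 0.067). Same-numbered sgKeap1 and sgGFP tumours had correlations of 0.199, 0.0425 and -0.0941, and different-numbered ones -0.175 to 0.0942. The labels give no pairing and none was assumed for these groups. In sgKeap1 the block gave 1778 genes and added Ugt1a6a (1.80, adjusted p = 0.030). For control and sgNrf2 the correlation was -0.000641.

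Signs turned in genes that did not pass. Ugt1a9 in sgCul3 was -0.035 with the 2 controls, and -0.57 (without sgCul3 tumour 3) to 1.40 leaving out 1 library. In sgKeap1 it was -0.092 with quantile normalization, -0.095 with edgeR, -0.056 with DESeq2, -0.46 with the 2 controls, and -0.18 (without sgGFP tumour 2) to 0.51 leaving out 1, with -0.16 without sgKeap1 tumour 2. Ugt1a1 in sgKeap1 was -0.98 to 0.46, the last without sgGFP tumour 3. Between sgKeap1 and sgCul3, Ugt1a1 was -0.15 (without sgCul3 tumour 1) to 0.96 and Ugt1a9 -1.29 to 0.67 (without sgCul3 tumour 3). Nfe2l2 in sgNrf2 was -0.25 to 0.15 (without control A), and 0.0092 without sgNrf2 A. The cause was not tested.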

Other observations

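Of the markers of other cell types in these bulk tumours, limma called 0 of 8 macrophage markers in sgCul3 and in sgKeap1 and 2 of 7 lower in sgNrf2. Of 7 endothelial markers it called 1 lower in sgCul3, 0 in sgKeap1 and 1 higher in sgNrf2. Of the markers of stellate cells and fibroblasts it called 0 of 8 in sgCul3 and in sgKeap1 and 1 of 7 higher in sgNrf2. Lymphocyte markers were mostly below the filter, with 1 tested in the first table and 4 in the second, and 0 of them were called. Beside these counts, 1.35%, 4.45% and 1.9% of all genes were called higher in sgCul3, sgKeap1 and sgNrf2. The shares called lower were 0.851%, 3.37% and 2.51%. Summed lymphocyte markers stood at 218 to 251 in sgNrf2 against 58.2 to 111 in the controls. Cd4 and the macrophage marker Adgre1, named after their values were seen, did not pass there (log2, 2.96 ± 0.92 and 2.08 ± 0.59, limma adjusted p = 0.12 and 0.10). Only 3 of the 7 macrophage markers tested in sgNrf2 had positive log2 fold changes, and the median of that list was -0.41.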
